A study of Mus musculus with 6 samples.

Results

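The genes described here encode interstitial collagens and other matrix proteins of mesenchymal type: elastic fibre proteins, lysyl oxidases, adhesive glycoproteins, proteoglycans, and the proteases and inhibitors that remodel them. They were chosen by name, 48 of the 52636 genes in the count tables, and all 48 were found by symbol. After the filter on low counts 46 were tested, and Col6a3 and Lum were not. E14 is a line of mouse embryonic stem cells, and RNA had been sequenced from it after 4 days of differentiation under retinoic acid at 5 µM (written µm in the labels). The knockout group (KO) held 3 libraries of E14 cells that lack an enhancer cluster, named in the title of the series together with activation of HoxB and neural progenitors. The wild-type group (WT) held 3 libraries of unmodified E14 cells. Both groups had been grown with LIF, the MEK inhibitor PD0325901 and the GSK inhibitor CHIR99021, which were withdrawn for the differentiation, and both had received retinoic acid. How many KO clones were used, and where the deleted cluster lies, is not stated in the labels.

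Interstitial matrix is the meshwork that connective tissue cells lay down around themselves. Fibrillar collagens are trimers of alpha chains that assemble outside the cell into fibrils. Lysyl oxidases crosslink collagen and elastin, and fibronectin links the meshwork to cells. Most of these genes are typical of fibroblasts and other mesenchyme, whereas cells of the early endoderm mainly build basement membranes. In cultures that leave pluripotency under retinoic acid, both kinds of matrix can be made.

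Gene counts summed to 7780368 to 8521902 in the KO libraries and 8208615 to 9472916 in the WT libraries. Genes over ribosomal RNA repeats held 1.04% of counts in KO replicate 1 and 0.0726 to 0.118% in the other 5 libraries. Without KO replicate 1, 12 of the tested matrix genes were higher in KO and 23 lower, and with the ribosomal and mitochondrial genes left out 11 were higher and 23 lower, against 11 and 23 as reported. Transcripts of the mitochondrial genome took 2.58 to 2.89% of KO counts and 1.67 to 1.73% of WT counts. The labelled cell state was checked against marker lists. Of 14 neural progenitor markers 9 had enough counts to be tested, 5 fell, 2 rose and 2 did not pass (median log2 fold change -0.95), and the 14 summed to 154 to 165 CPM in the KO libraries and 539.8 to 568 CPM in the WT libraries. Nes, encoding nestin, averaged 33.6 ± 3.49 CPM in KO and 231 ± 6.84 CPM in WT, Fabp7 was at 0 in every library, and Sox1 averaged 1.84 ± 0.607 CPM in KO and 1.98 ± 0.521 CPM in WT. Of 8 pluripotency markers 7 were tested, 5 fell and 2 rose (median log2 fold change -1.31), with a sum of 385 to 404 CPM in the KO libraries and 644 to 673 CPM in the WT libraries. Among them Nanog averaged 32.8 ± 1.51 CPM in KO and 164 ± 3.89 CPM in WT, and Pou5f1 averaged 201 ± 14.9 CPM in KO and 184 ± 5.36 CPM in WT. The 22 mesenchyme and fibroblast markers summed to 742 to 765 CPM in the KO libraries and 3345 to 3356 CPM in the WT libraries, with S100a4, Dlk1 and Fap at 0 in all 6 libraries. Acta2, Tagln and Vim made up 365 to 385 CPM in KO and 3045 to 3049 CPM in WT of this sum. The other 19 markers made up 377 to 384 CPM in KO and 297 to 311 CPM in WT. The direction of the sum thus rested on those 3 genes. By count, 9 of the 18 tested mesenchyme markers fell, those 3 included, and 4 rose. A count of 0 over 3 libraries allows up to 0.123 CPM in KO and 0.115 CPM in WT, for counting error only. The 15 parietal endoderm markers, 1 of which is the matrix gene Srgn, summed to 19101 to 19636 CPM in the KO libraries and 7852 to 7963 CPM in the WT libraries. The name mesenchymal is used here for the genes and not for the cells. In these bulk libraries fewer cells of a type and less RNA per cell cannot be told apart.

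Matrix genes fell more often than they rose in the KO libraries, and genes of related function moved in opposite directions. Fibronectin, tenascin C, biglycan and 4 of the 8 fibrillar collagen genes fell. The genes for serglycin, MMP2, the 2 tested chains of collagen VI and the second chain of collagen I rose. Of the 46 genes tested, 23 fell (50.0%), 11 rose (23.9%) and 12 did not pass the test, the edgeR quasi-likelihood F test at a Benjamini-Hochberg adjusted p of 0.05 over all genes. Over all 15816 genes tested, 34.0% fell, 34.5% rose and 68.6% changed in either direction, so the share of matrix genes that changed, 73.9%, was near that background. At least a 2-fold fall was seen in 14 matrix genes (30.4%, against 9.47% of all genes), and at least a 2-fold rise in 5 (10.9%, against 11.5%). The median log2 fold change, KO over WT, was -0.43 over the 46 genes and 0.0091 over all genes tested. In 22 matrix genes every KO library lay below every WT library, and in 11 every KO library lay above, against 35.4% and 35.5% of all genes tested (70.9% for either direction). CPM, the counts relative to the library size after scaling for composition, are the levels given below, and n is 3 libraries a group throughout. The replicates are called biological in the series' design text.

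**Figure D1:**
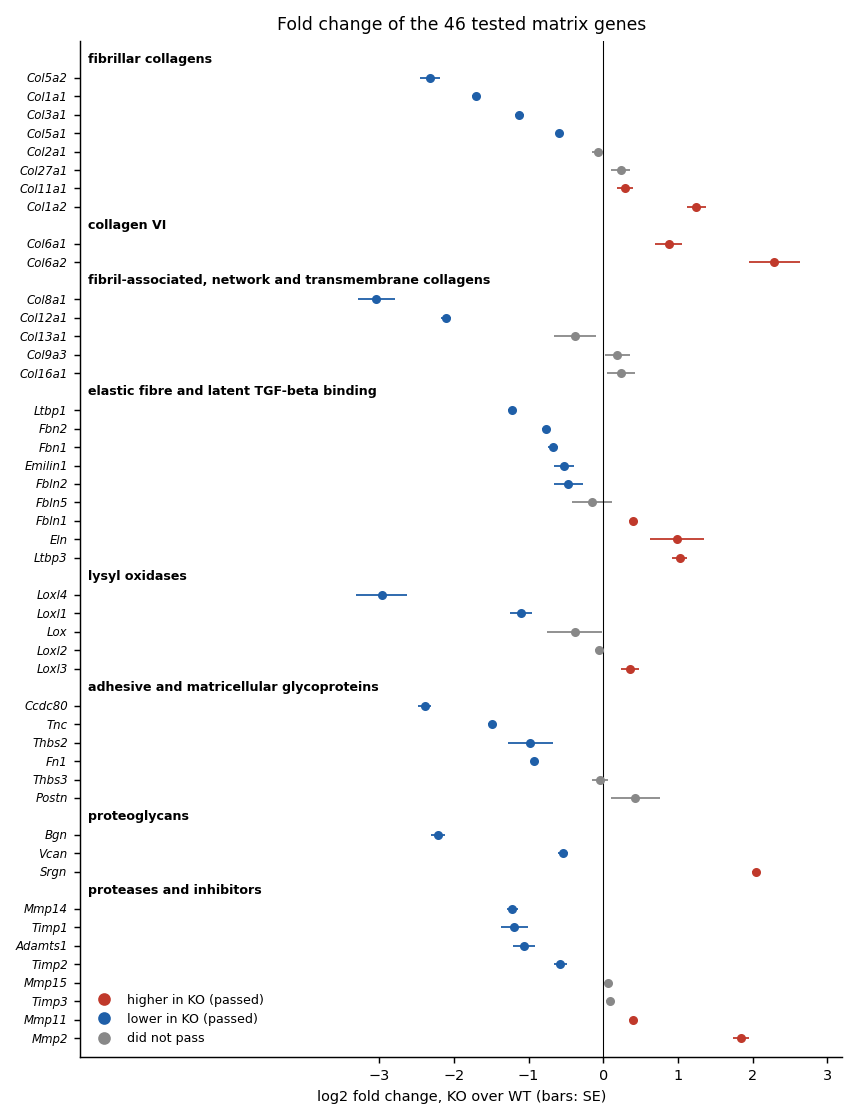
Log2 fold change, KO over WT, of the 46 tested matrix genes, grouped by role, with the standard error of each (SE) as a bar. Falls of more than 2 on the log2 scale were seen in Col8a1, Loxl4, Ccdc80, Col5a2, Bgn and Col12a1, and rises of more than 2 in Col6a2 and Srgn.

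All 48 matrix genes together took 0.296 to 0.299% of gene counts in KO libraries and 0.442 to 0.449% in WT libraries. Fn1 held the largest part of this, and without it the shares were 0.208 to 0.211% in KO and 0.277 to 0.281% in WT. The 16 collagen genes among them took 0.0493 to 0.0515% in KO and 0.0950 to 0.0968% in WT. Within each group these shares varied little between libraries, and the groups did not overlap.

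Of the 8 fibrillar collagen genes in the set, 4 fell, 2 rose and 2 did not pass. Against 34.0% of all genes lower and 34.5% higher, counts in so few genes are descriptions only, here and for each role below. Col1a1 (ENSMUSG00000001506, chr11:94936224-94953042, GRCm38) encodes the chain that is present 2 times in the collagen I trimer. It stood at 105, 109.6 and 109 CPM in the KO libraries, against 343, 348 and 368 CPM in the WT libraries, a log2 fold change of -1.71 (SE 0.045) with an edgeR adjusted p of 2.14e-21. The KO values lay within a narrow band, far below the lowest WT value. Col1a2 (chr6:4504814-4541544), which encodes the other chain of the same trimer, stood at 36.2, 32.1 and 31.0 CPM in KO and at 15.5, 15.3 and 10.9 CPM in WT. Here every KO library lay above every WT library, at 1.24 (SE 0.13), with an edgeR adjusted p of 2.12e-09. Col1a2 was singled out after its values were seen. Set against each other within a library and per kilobase of merged exon, the ratio of Col1a1 to Col1a2 was 5.50, 6.47 and 6.65 in KO and 42.0, 43.0 and 63.8 in WT. Per kilobase of the longest coding transcript, which for Col1a2 is 5348 bases against 12426 bases of merged exon, the ratio was 2.62 to 3.17 in KO and 20.0 to 30.4 in WT. The KO mean of this ratio was 0.125 of the WT mean under either length.

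Collagens III and V join collagen I in mixed fibrils, collagen V at their core. Col3a1 stood at 47.7, 48.4 and 47.6 CPM in KO and at 102, 110.2 and 101 CPM in WT, a log2 fold change of -1.13 (SE 0.059). Its values were below the lowest WT level in each KO library. Col5a2, for the second chain of collagen V, had 5.67, 6.49 and 6.79 CPM in KO against 30.3, 32.9 and 31.8 CPM in WT, at -2.32 (SE 0.13). Col5a1, for the first chain, had 136, 137 and 136 CPM in KO against 206, 201 and 209 CPM in WT, at -0.59 (SE 0.043). Both of these collagen V chains fell, but unequally. Per kilobase of merged exon the ratio of Col5a1 to Col5a2 was 27.0, 23.8 and 22.6 in KO and 7.68, 6.90 and 7.43 in WT. None of the ratios of 2 genes given here was planned in advance. The collagen I, collagen V and MMP2 to MMP14 ratios were set up after the values had been seen. All the ratios are given as descriptions. Among the other fibrillar genes, Col11a1, a collagen of cartilage and eye, was at 0.29 (SE 0.10) and its groups overlapped. Its call was lost with KO replicate 1, KO replicate 2, WT replicate 1 or WT replicate 3 left out (edgeR adjusted p up to 0.0844). Col27a1 was at 0.23 (SE 0.12) and did not pass. Col2a1, the main collagen of cartilage, averaged 41.1 ± 2.09 CPM in KO and 43.4 ± 0.645 CPM in WT and did not pass either.

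**Figure D2:**
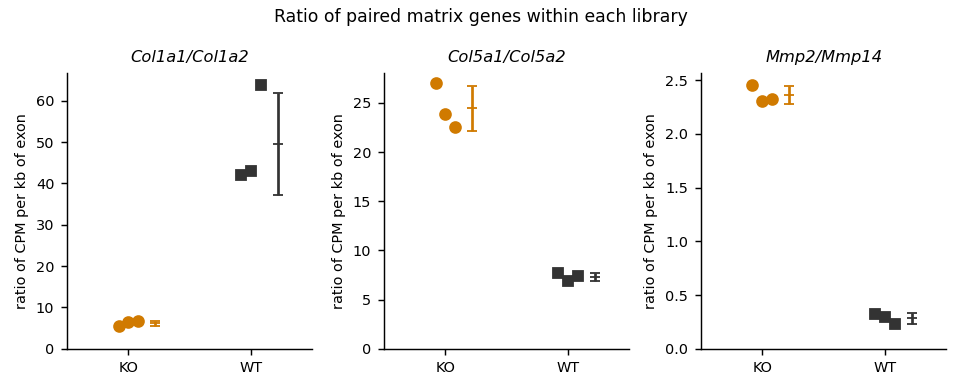
Ratio of the level per kilobase of merged exon of 2 genes in each library, for Col1a1 to Col1a2, Col5a1 to Col5a2 and Mmp2 to Mmp14. Circles are the 3 KO libraries, squares the 3 WT libraries, and the bar beside them is the mean and SD. The KO and WT values are apart in each pair drawn. They were also apart for Col6a1 to Col6a2 and for Mmp2 to Timp2, and overlapped for Fbn1 to Fbn2. In the collagen I, Mmp2 to Mmp14 and Mmp2 to Timp2 pairs the genes moved in opposite directions without overlap. Their ratios therefore had to be apart. The Col6a1 to Col6a2 ratio of WT replicate 3 (32.9) rests on 3 counts of Col6a2.

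Collagen VI forms beaded microfilaments around cells from 3 chains. Col6a2 stood at 4.77, 6.86 and 6.44 CPM in KO and at 1.54, 1.70 and 0.368 CPM in WT, a log2 fold change of 2.29 (SE 0.34). Col6a1 stood at 17.3, 11.2 and 11.6 CPM in KO and at 7.33, 7.98 and 6.38 CPM in WT, a log2 fold change of 0.88 (SE 0.18). Both genes rose, with KO replicate 1 standing highest for Col6a1 and lowest for Col6a2. Col6a3, the third chain, had 5, 5 and 2 counts in KO and 8, 8 and 9 counts in WT, too few to be tested. Its KO libraries all lay below its WT libraries, the other way from Col6a1 and Col6a2.

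Among the 5 fibril-associated, network and transmembrane collagens, 2 fell, 0 rose and 3 did not pass (all genes tested: 34.0% lower, 34.5% higher). Col12a1, which binds to the surface of collagen I fibrils, had 32.7, 30.7 and 25.5 CPM in KO against 126, 131 and 125 CPM in WT, at -2.11 (SE 0.069) and an edgeR adjusted p of 2.22e-19. Col8a1, a network-forming collagen of vessels and cornea, had 11, 13 and 8 counts in KO and 103, 101 and 81 counts in WT. That is 1.42, 1.62 and 0.937 CPM in KO and 12.2, 10.7 and 9.94 CPM in WT, a log2 fold change of -3.04 (SE 0.25), the lowest of the 46 genes. The genes that did not pass were Col13a1, a transmembrane collagen, at -0.38 (SE 0.28), Col16a1 at 0.23 (SE 0.19) and Col9a3 at 0.19 (SE 0.17). Col16a1 ranged from 8.12 to 15.5 CPM within the KO group alone.

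**Figure D3:**
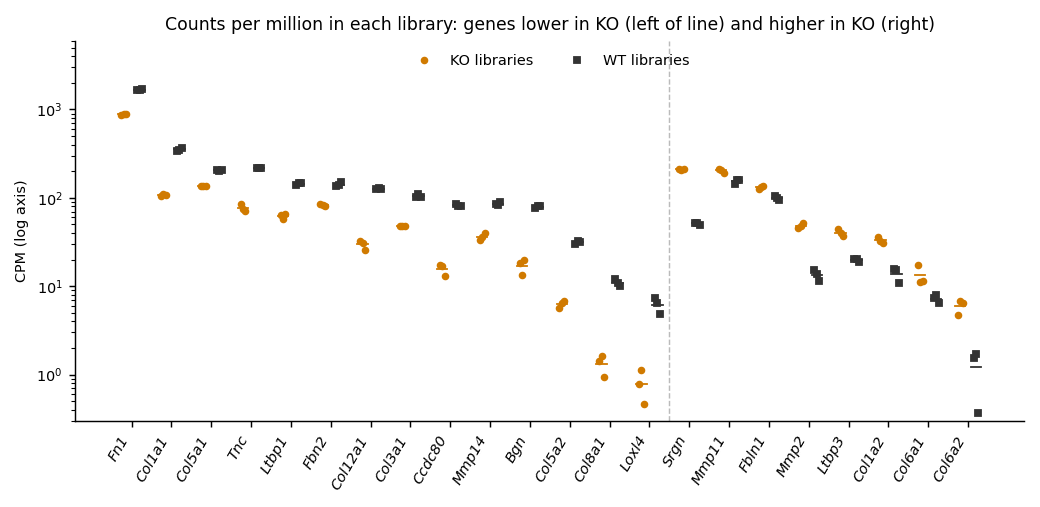
CPM in each library on a log axis for 14 genes that fell in KO and 8 that rose, with circles for KO libraries, squares for WT libraries and a line at each group's mean. In none of these 22 genes do the KO and WT libraries overlap. All 22 were drawn from genes that had passed the test, and groups were apart in 70.9% of all genes tested.

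Of the 9 genes of elastic fibres and latent TGF-beta binding, 5 fell, 3 rose and 1 did not pass. The shares over all genes tested were 34.0% lower and 34.5% higher. Fibrillins form the microfibrils on which elastin is laid down, and latent TGF-beta binding proteins hold the inactive growth factor there. Ltbp1 had 63.3, 57.2 and 65.6 CPM in KO against 140.1, 149 and 146 CPM in WT, at -1.23 (SE 0.053). Ltbp3, of the same family, had 44.8, 39.7 and 36.5 CPM in KO against 20.1, 20.4 and 18.9 CPM in WT, at 1.02 (SE 0.10). The groups were apart for both genes, on opposite sides. Both fibrillin genes fell. Fbn2 stood at 84.3, 82.9 and 81.5 CPM in KO and 136, 138 and 149.8 CPM in WT (-0.77, SE 0.049). Fbn1 stood at 50.6, 45.8 and 49.2 CPM in KO and 80.9, 74.0 and 77.4 CPM in WT (-0.67, SE 0.066), with exons of Gm9913 on the other strand over 20.1% of its exon length. For both fibrillins every KO library lay below every WT library. Per kilobase of merged exon the ratio of Fbn1 to Fbn2 was 0.655, 0.602 and 0.658 in KO. In WT this ratio was 0.647, 0.584 and 0.563, so the groups overlapped. Emilin1, a glycoprotein of the elastin and microfibril interface, fell by 0.53 on the log2 scale (SE 0.13). Fbln1, a fibulin that binds fibronectin and elastin, rose and averaged 132 ± 6.17 CPM in KO and 99.8 ± 4.30 CPM in WT, at 0.40 (SE 0.050). Eln, encoding elastin itself, was low, at 2.71, 4.37 and 2.34 CPM in KO and 1.06, 1.60 and 2.09 CPM in WT (0.98, SE 0.36), and its call was lost without KO replicate 2 or without WT replicate 1 (edgeR adjusted p 0.157 and 0.0915). Fbln2 was at -0.47 (SE 0.20) with groups that overlapped, and it missed the threshold under 9 of 16 alternatives. Fbln5, which elastic fibres need for assembly, was at -0.16 (SE 0.27) and did not pass.

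Upstream sequences are shown for Ltbp1 and Ltbp3, family members that moved in opposite directions, and for Col3a1, a fibrillar collagen gene that fell. The 250 bases before the RefSeq start are printed 5′ to 3′ on the plus strand, which is the strand of all 3 genes, and overlap 0 bases of annotated exon. They lie in GRCm38.p6 at chr17:75005279-75005528 for the first of 2 starts listed for Ltbp1, at chr19:5740650-5740899 for Ltbp3 and at chr1:45311288-45311537 for Col3a1. Capitals mark every match on either strand to one of 5 motifs. These were the TATA box searched as TATAAA, the CCAAT box searched as CCAAT, the AP-1 motif searched as TGANTCA, the TEAD motif searched as GGAATG, and the CArG box of serum response factor.
Ltbp1: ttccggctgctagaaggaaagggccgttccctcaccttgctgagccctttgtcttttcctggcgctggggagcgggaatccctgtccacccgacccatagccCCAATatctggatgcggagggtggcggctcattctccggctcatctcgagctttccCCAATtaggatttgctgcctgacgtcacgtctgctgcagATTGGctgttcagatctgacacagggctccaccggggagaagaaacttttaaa
Ltbp3: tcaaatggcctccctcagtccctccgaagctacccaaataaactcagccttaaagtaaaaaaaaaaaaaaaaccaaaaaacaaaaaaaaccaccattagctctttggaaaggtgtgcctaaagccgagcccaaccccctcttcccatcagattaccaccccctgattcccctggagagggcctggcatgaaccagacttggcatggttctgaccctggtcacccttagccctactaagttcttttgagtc
Col3a1: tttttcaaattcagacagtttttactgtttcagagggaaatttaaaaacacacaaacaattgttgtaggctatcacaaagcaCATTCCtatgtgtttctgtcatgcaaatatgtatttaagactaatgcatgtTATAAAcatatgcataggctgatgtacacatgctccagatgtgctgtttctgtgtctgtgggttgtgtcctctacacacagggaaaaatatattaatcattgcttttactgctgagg
The first window of Ltbp1 holds 3 CCAAT matches and no other match, its second window (chr17:75178531-75178780, not printed) holds no match to any of the 5, and in the first 56.8% of the bases are G or C. Ltbp3 holds no match to any of the 5, with 47.2% G or C. Col3a1 holds 1 TATAAA and 1 GGAATG match, the second on the other strand, with 35.2% G or C. There were 0 overlaps between matches in these windows.

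Promoter windows were matched for 33 of the 48 matrix genes, 40 windows in all. CCAAT was found in 27.5% of them and in 33.8% of all 32851 windows, TATAAA in 8 of the 40 against 12.4%, and GGAATG in 7.50% against 12.6%. TGANTCA was found in 1 window, that of Col6a1 (2.50%, against 6.75%), and the CArG box in 0, against 1.47%. Of the 16 genes that fell and had a window, 6 held CCAAT and 4 TATAAA, and of the 8 that rose, 2 held CCAAT and 1 TATAAA. These matches describe letters in a short window only.

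Lysyl oxidases split by member. Loxl4 had 6, 9 and 4 counts in KO and 62, 61 and 39 counts in WT, which is 0.773, 1.12 and 0.468 CPM in KO and 7.33, 6.49 and 4.79 CPM in WT, at -2.97 (SE 0.34) and an edgeR adjusted p of 2.54e-08. Loxl1, which is needed for elastic fibre upkeep, had 7.73, 10.6 and 9.96 CPM in KO and 16.3, 22.2 and 22.3 CPM in WT, at -1.10 (SE 0.15). Both fell with no overlap of the groups. Loxl3 rose slightly, with 25.3, 30.1 and 21.6 CPM in KO and 19.9, 20.6 and 19.6 CPM in WT (0.35, SE 0.12). Exons of Htra2 on the other strand cover 11.6% of Loxl3, and its call was lost without KO replicate 2 (edgeR adjusted p = 0.123). The most abundant member, Loxl2, averaged 119.5 ± 4.84 CPM in KO and 124 ± 11.0 CPM in WT and did not pass. Lox, the founding member, had 7, 15 and 27 counts in KO and 25, 21 and 22 counts in WT and did not pass.

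Of the 6 adhesive and matricellular glycoprotein genes, 4 fell, 0 rose and 2 did not pass (all genes tested: 34.0% lower, 34.5% higher). Fn1 (ENSMUSG00000026193, chr1:71585520-71653200), encoding fibronectin, was the most abundant of all 48 genes by CPM, with 869.9, 880.2 and 891 CPM in KO and 1664, 1675 and 1701 CPM in WT. Its log2 fold change of -0.93 (SE 0.024) had an edgeR adjusted p of 1.58e-21. Within each group the Fn1 values differed by only a few percent. Tnc, encoding tenascin C, an anti-adhesive protein of embryonic and healing tissue, had 85.3, 75.2 and 70.5 CPM in KO against 216, 217 and 217 CPM in WT (-1.49, SE 0.054). Ccdc80, a secreted matrix protein, had 17.4, 17.0 and 12.9 CPM in KO against 84.8, 81.2 and 81.5 CPM in WT (-2.39, SE 0.091). Thbs2, encoding thrombospondin 2, was low and fell, with 17, 15 and 17 counts in KO and 32, 45 and 27 counts in WT, or 2.19, 1.87 and 1.99 CPM in KO and 3.78, 4.79 and 3.31 CPM in WT (-0.98, SE 0.30). The genes Thbs3, at -0.05 (SE 0.11), and Postn, encoding periostin, at 0.43 (SE 0.33), did not pass. Postn had 21, 25 and 22 counts in KO and 23, 17 and 14 counts in WT.

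Proteoglycan genes moved in both directions. Srgn (ENSMUSG00000020077, chr10:62493833-62527451) encodes serglycin, a proteoglycan of secretory granules in blood and endothelial cells that is also made by parietal endoderm. It stood at 213, 208 and 211 CPM in KO and at 52.5, 52.4 and 48.8 CPM in WT, a log2 fold change of 2.04 (SE 0.049) with an edgeR adjusted p of 3.56e-22, the smallest of the 46 genes. The KO libraries were about 4-fold higher and varied little. Bgn, encoding biglycan, a small leucine-rich proteoglycan that binds collagen I, had 18.4, 13.4 and 19.7 CPM in KO against 77.5, 80.2 and 81.6 CPM in WT (-2.21, SE 0.096). Vcan, encoding the large hyaluronan-binding proteoglycan versican, had 46.4, 52.0 and 50.7 CPM in KO against 74.1, 72.4 and 69.6 CPM in WT (-0.53, SE 0.067). The KO libraries lay below the WT libraries in both genes. Lum, encoding lumican, had 7, 3 and 12 counts in KO and 5, 4 and 1 counts in WT and was not tested.

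Proteases and their inhibitors included 2 genes that rose, 4 that fell and 2 that did not pass (all genes tested: 34.5% higher, 34.0% lower). Mmp2 (ENSMUSG00000031740, chr8:92827291-92853420) encodes gelatinase A, which is secreted as a proenzyme. It had 46.1, 47.5 and 52.2 CPM in KO against 15.3, 13.8 and 11.4 CPM in WT, at 1.85 (SE 0.11) and an edgeR adjusted p of 4.64e-14. Mmp14 encodes a membrane protease that activates pro-MMP2. It had 33.2, 36.4 and 39.7 CPM in KO against 84.1, 82.0 and 89.0 CPM in WT, at -1.22 (SE 0.072). Mmp2 and Mmp14 thus moved in opposite directions, with no overlap of KO and WT libraries for either. Per kilobase of merged exon the ratio of Mmp2 to Mmp14 was 2.45, 2.31 and 2.33 in KO and 0.321, 0.298 and 0.227 in WT. Timp2, the inhibitor that also bridges pro-MMP2 to MMP14, averaged 40.9 ± 4.68 CPM in KO and 61.1 ± 5.38 CPM in WT and fell (-0.57, SE 0.084). Timp1 fell as well and averaged 6.43 ± 1.85 CPM in KO and 14.6 ± 1.31 CPM in WT (-1.19, SE 0.18). For both inhibitors the KO and WT libraries were apart. Timp3, which binds to the matrix, was at 0.09 (SE 0.054) and did not pass, with exons of Syn3 on the other strand over 21.3% of its exon length. Mmp11, encoding stromelysin 3, had 213, 207 and 192 CPM in KO against 145, 160.5 and 159.5 CPM in WT (0.40, SE 0.050), a small rise in an abundant gene. Mmp15, a membrane protease like MMP14, was at 0.06 (SE 0.048) and did not pass. Adamts1, a protease that cleaves versican, had 9.15, 7.74 and 7.50 CPM in KO against 15.5, 17.7 and 17.7 CPM in WT (-1.06, SE 0.15).

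Levels of different genes were compared per kilobase of merged exon (CPM per kb). In KO the order was led by Srgn (96.1 ± 1.16), Fn1 (75.3 ± 0.902), Mmp11 (73.5 ± 3.94) and Fbln1 (30.1 ± 1.41), as mean ± SD. Fn1 and Mmp11 differed there by less than the SD of Mmp11. In WT it was led by Fn1 (144 ± 1.63), Mmp11 (55.7 ± 3.23), Col1a1 (53.8 ± 1.98) and Tnc (27.9 ± 0.0425), where Mmp11 and Col1a1 lay within each other's SD. The next 5 genes in WT, Mmp15, Col5a1, Srgn, Loxl2 and Fbln1, spanned only 22.9 to 24.6 CPM per kb. Per kilobase of the longest coding transcript the first 4 genes in KO and the first 3 in WT were the same, in the same order. In WT Bgn (33.0), Timp3 (30.7) and Tnc (30.5) came next on that length. Col1a1 was eighth in KO, at 16.4 ± 0.369 CPM per kb, and Srgn was seventh in WT, on both lengths. At the low end, Col6a3 stood at 0.0419 CPM per kb in KO and 0.0808 in WT.

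**Figure D4:**
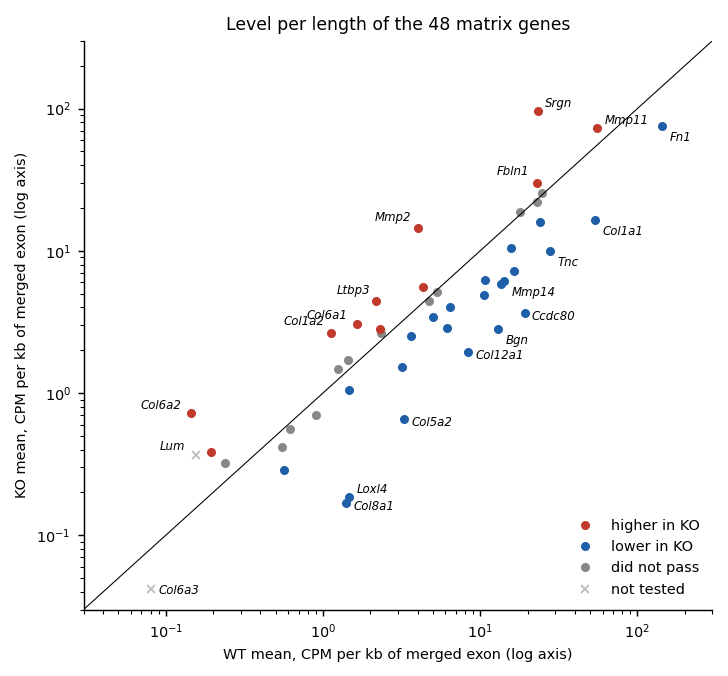
Mean level of each of the 48 matrix genes in KO (vertical) and WT (horizontal) libraries, in CPM per kb of merged exon on log axes, coloured by the edgeR call. Points above the diagonal, such as Srgn, Mmp2 and Col6a2, are higher in KO, and points below it, such as Fn1, Col1a1 and Bgn, are lower in KO.

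The 48 genes lie on 19 chromosomes, and some are neighbours. Col3a1 and Col5a2, which both fell, lie 24.6 kb apart on chromosome 1. Col6a1 and Col6a2, which both rose, lie 85.2 kb apart on chromosome 10. Further apart, Srgn, which rose, and Col13a1, which did not pass, lie 514.7 kb apart on chromosome 10. Tnc, which fell, lies 624.8 kb from Col27a1, which did not pass, on chromosome 4. Mmp11, which rose, lies on chromosome 10, 659.3 kb from Col6a2 and 772.3 kb from Col6a1. Chromosome 11, which carries HoxB, holds Col1a1 and Timp2. Col1a1 ends 1318.4 kb before the stretch from Hoxb9 to Hoxb1, and Timp2 starts 21932.8 kb beyond it. No distance to the deleted cluster can be given. Of the 6 HoxB genes looked at beside them (Hoxb1, Hoxb2, Hoxb3, Hoxb5, Hoxb8 and Hoxb9), every one was lower in KO, with log2 fold changes of -0.99 to -0.33.

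Genes that make and process collagen rose more often than they fell. Of 27 listed genes, all tested, 15 rose, 7 fell and 5 did not pass, with a median log2 fold change of 0.24. P4ha1 and P4ha2, subunits of the prolyl hydroxylase that stabilises the collagen helix, were at 1.39 (SE 0.040) and 1.60 (SE 0.047). Fkbp10, a prolyl isomerase that acts on procollagen, was at -1.19 (SE 0.046). Bmp1, a protease that removes the C-terminal end of fibrillar procollagens, was at -1.23 (SE 0.050), and its enhancer Pcolce at -2.02 (SE 0.11). Among the other proteases listed, Adamts2 (1.41, SE 0.15) and Adamts14 (0.48, SE 0.16) rose. Tll1 fell (-1.97, SE 0.30) and Adamts3 did not pass. Adamts14 missed the threshold under 2 of the alternatives. Bmp1, Pcolce and these proteases were singled out after their values were seen.

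Other matrix genes were followed in a list of 49, of which 37 were tested, 18 rose, 10 fell and 9 did not pass (median 0.40). The list includes basement membrane genes, and Col4a1 and Sparc below are also among the parietal endoderm markers. Col4a1, a chain of collagen IV, was at 1.37 (SE 0.020) and averaged 4919.6 ± 169 CPM in KO and 1902 ± 36.3 CPM in WT. Sparc, a collagen-binding protein, was at 1.26 (SE 0.021). Thbs1, encoding thrombospondin 1, was at -3.47 (SE 0.059), with 26.5 ± 2.78 CPM in KO and 294 ± 2.45 CPM in WT. Dcn, encoding decorin, a fibroblast proteoglycan, averaged 4.18 ± 0.693 CPM in KO and 5.42 ± 1.67 CPM in WT and did not pass. Of 32 other proteases and inhibitors, 26 were tested, 11 rose, 9 fell and 6 did not pass (median 0.14). Mmp9, or gelatinase B, was at -2.03 (SE 0.058) and Plaur, the urokinase receptor, at -2.48 (SE 0.082).

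Genes of TGF-beta signalling and of the response to mechanical tension fell in 13 of 25, rose in 4 and did not pass in 8 (median -0.27). Ccn2 and Ccn1, matricellular genes induced through YAP, were at -3.06 (SE 0.054) and -1.69 (SE 0.044), with exons of other-strand genes over 23.2% of the exon length of Ccn2. Tgfb2, a TGF-beta ligand, was at -1.67 (SE 0.075). These lists share the KO and WT libraries with the matrix genes, so their values are given side by side and were not correlated.

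Markers of several cell types, not all of them makers of interstitial matrix, also moved in the same libraries. Of the 22 mesenchyme and fibroblast markers 18 were tested, 9 fell, 4 rose and 5 did not pass (median -0.40). Acta2, smooth muscle actin, was at -3.65 (SE 0.044), Tagln, an actin-binding protein, at -3.07 (SE 0.038) and Vim, vimentin, at -2.53 (SE 0.036). Exons of other-strand genes cover 67.9% of Tagln. Pdgfra, a receptor of mesenchyme that primitive endoderm also carries, was at 1.22 (SE 0.054). Of 15 parietal endoderm markers 12 rose, the matrix gene Srgn included, 2 fell and 1 did not pass (median 0.92). Lamb1 was at 1.73 (SE 0.022) and Lama1 at 1.59 (SE 0.021), both chains of laminin. Visceral endoderm markers rose in 9 of 12, fell in 1 and did not pass in 2, and Cubn, an endocytic receptor, was at 2.22 (SE 0.034). Chondrocyte markers rose in 3 of 7 tested and fell in 1, and endothelial markers rose in 1 of 4 tested and fell in 2. The part of these cell types in the matrix results was not tested. The lists differ in size and share members with one another, so they are set only beside the background of 34.5% higher and 34.0% lower.

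**Figure D5:**
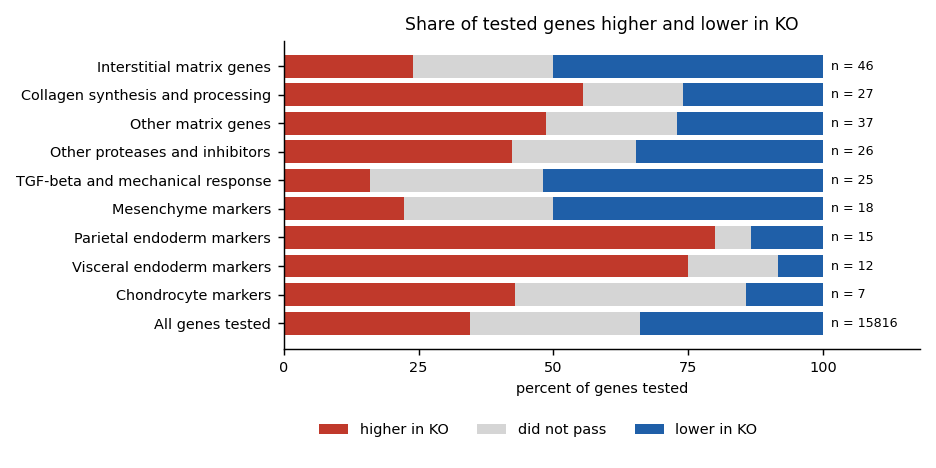
Percent of tested genes that were higher in KO, did not pass, or were lower in KO, for the matrix genes, the related lists, the marker lists and all genes tested, with the number tested at the right. The matrix genes show 23.9% higher and 50.0% lower, against 34.5% and 34.0% of all genes.

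A limit on strand remains. The strand setting of the counting was not given, so reads of a gene and of a partner on the other strand may not be told apart where exons overlap. Of the 48 matrix genes 34 have no such overlap, and of the 32 of these that were tested 18 fell and 7 rose. Over all genes tested, with or without such overlap, 34.0% fell and 34.5% rose.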

How the data were processed

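Gene expression was measured by RNA sequencing in 3 KO and 3 WT libraries. The authors deposited 1 table of whole-number read counts per Ensembl gene for each library, with no normalisation. HISAT2 2.1.0, HTSeq 0.9.1, DESeq2 1.18.1 and the mm10 build are named in the submitters' processing notes. Strand setting, read layout and annotation release were left unstated in the sources used here. Each table ends with 5 HTSeq tallies of reads given to no gene, 61.6 to 64.0% of reads, which entered neither library sizes nor tests. Reads under no feature alone made up 42.3 to 43.5%.

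The 6 libraries were compared in edgeR 4.0.16 (R 4.3.3), KO against WT with no covariate, after filterByExpr at a minimum count of 10 (15816 of 52636 genes kept) and TMM scaling. The threshold was 0.05 on quasi-likelihood p-values after Benjamini-Hochberg adjustment across the whole table. Each SE is the absolute log2 fold change over the square root of F. CPM used TMM library sizes and were divided by merged exon length (GENCODE M21, GRCm38) to compare genes. The length of the longest coding transcript was added as an alternative after seeing the data. Promoter sequences came from RefSeq (GRCm38.p6). The procedure was tested on simulated counts.

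The matrix genes and lists were chosen with earlier results of these data known. Values in every library are given for up to 4 changed genes a role with the smallest adjusted p and for changes of at least 2 on the log2 scale. Up to 3 changed genes are named from each related list, except where a gene is marked as chosen after its values were seen, and marker lists are named in part. One gene that this rule would name is not reported here. Alternatives were DESeq2 1.42.0, limma-voom (limma 3.58.1), RLE and upper-quartile scaling, no filter beyond 1 count, a filter at 1 CPM in 3 or more libraries, a block on replicate number, correction for transcript GC content, that correction with the block, removal of mitochondrial and ribosomal RNA locus genes, and each library left out in turn. No replicate pair agreed within sampling noise, with a chi-square per degree of freedom of 1.91 to 7.14. Nothing says whether replicates came from separate clones or cultures, so p-values measure only the spread between these samples.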

Additional observations from a re-analysis of the deposited data

How the results depend on the processing

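Under 16 alternatives the count of matrix genes that fell stayed at 22 or 23, and the count that rose ranged from 8 to 13. Leaving out 1 library at a time gave 8 to 12 higher and 22 to 23 lower, with the lowest count of rises without KO replicate 2. Over all genes the counts without 1 library were 5186 to 5305 higher and 5163 to 5280 lower, and the median over the matrix genes was -0.49 to -0.39. That median, -0.43 as reported, was -0.48 with limma-voom, -0.39 with upper-quartile scaling, -0.46 with the replicate block, -0.39 with the GC trend removed and -0.39 with both. The replicate numbers do not pair the libraries, as same-numbered deviations correlated at 0.013, 0.0049 and -0.013 and not every library correlated best with its own number. The block gave 11 matrix genes higher and 23 lower. Of 736 single-gene values, 705 kept their direction and their side of the threshold. The call was lost in 16 values of 4 genes (Fbln2, Col11a1, Eln and Loxl3) and gained in 7 values of 4 genes (Timp3, Mmp15, Col27a1 and Col16a1). Direction turned in 8 values of 5 genes, none of which passed in either setting. With the GC trend removed Col2a1 was at 0.057 and Thbs3 at 0.013, and with the block as well at 0.054 and 0.0094. With 1 library left out, Thbs3 ranged from -0.13 to 0.012, Col16a1 from -0.032 to 0.43, Fbln5 from -0.47 to 0.011 and Loxl2 from -0.12 to 0.0086. The cause was not tested. Depth limits Col6a3 and Lum, which had 1 to 12 counts a library, and widens the errors of Eln, Lox, Postn, Thbs2, Col6a2 and Loxl4. Col6a2 had 13, 16 and 3 counts in WT, and Loxl4 had 6, 9 and 4 counts in KO. Over the alternatives Col6a2 ranged from 1.88 to 2.62 and Loxl4 from -3.31 to -2.69, and both passed in each.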

Other observations

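Of 15 listed collagens outside the 48 matrix genes 13 were tested, 7 rose, 4 fell and 2 did not pass. The shares over all genes tested were 34.5% higher and 34.0% lower. Those named here were chosen after their values were seen. The transmembrane collagens Col23a1 and Col25a1 were at 1.78 (SE 0.27) and 1.98 (SE 0.42). Both were low in WT, with 17, 20 and 11 counts for Col23a1 and 4, 13 and 4 counts for Col25a1. Col26a1 was at 1.62 (SE 0.15) and Col22a1, a collagen of tissue junctions, at 1.59 (SE 0.28). Col26a1 averaged 23.1 ± 2.02 CPM in KO and 7.48 ± 1.72 CPM in WT, and Col22a1 averaged 6.16 ± 1.39 CPM in KO and 2.01 ± 0.602 CPM in WT. Col5a3 was at -0.69 (SE 0.24), Col11a2 at -0.88 (SE 0.28) and Col18a1, a basement membrane collagen, at -0.15 (SE 0.034), all of which fell. These calls did not hold under every alternative. Col5a3 missed the threshold under 3 of the alternatives, Col11a2 under 1 and Col18a1 under 2. Over the alternatives Col18a1 ranged from -0.17 to -0.032. Col7a1, the anchoring fibril collagen, fell as well and averaged 23.5 ± 1.40 CPM in KO and 47.2 ± 1.05 CPM in WT.

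Proteases of the ADAMTS and ADAM families split. Adamts5, an aggrecanase, was at -3.97 (SE 0.31) and Adam12 at -2.32 (SE 0.29), while Adamts15 was at 1.33 (SE 0.14) and Adamts19 at 2.23 (SE 0.35). Counts were low in KO for Adamts5 (2, 6 and 7) and Adam12 (6, 12 and 17), and in WT for Adamts19 (8, 12 and 6). Snai2, a transcription factor of mesenchymal transition, was at 2.05 (SE 0.18) and Zeb2, another, at -1.66 (SE 0.11). These genes were likewise chosen after their values were seen.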
